A study of Mus musculus with 9 samples.

Results

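Atf4 and 9 further genes of the transcriptional stress response were followed in cultured mouse NPK prostate cancer cells. The 10 genes were Atf4, Cebpb, Cebpg, Ddit3, Atf3, Atf5, Nupr1, Trib3, Chac1 and Sesn2, out of 12842 genes in the deposited table. They were chosen by name, after Trib3 had been seen to be much lower in cells treated with MCTP. The comparison of MCTP with control was therefore used in the choice, and its values for the 10 genes are given as a description with no test. The comparison of shNsd2 with MCTP uses the same MCTP libraries and is treated alike. The comparison of shNsd2 with control was not used in the choice and was tested. It shares the control libraries with the comparison that was used, so the test of Trib3 is not independent of the choice.

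NPK cells were isolated by the authors from lung metastases of mice with prostate cancer, and all libraries come from these cells. Polyadenylated RNA was profiled in 3 groups of 3 libraries: control cells, cells labelled MCTP, the prefix of an NSD2 inhibitor, and cells with Nsd2 silenced by shRNA (shNsd2). The MCTP titles carry the numbers 39, 40 and 41, with 1 library each, whereas the study names MCTP-39 only. Whether the numbers stand for different compounds is not stated. If they do, compounds and replicates cannot be told apart. All shNsd2 titles name Nsd2, whereas the source labels of the same libraries name Nsd2, Nsd3 and Nsd4 in turn. For silencing, the study's methods describe lentiviral pLKO.1 shRNAs and a control shRNA against luciferase, and for MCTP-39 a treatment of human DU145 cells with DMSO as the vehicle control. Which shRNA, control, dose and time apply to these libraries is not stated in the sources used here. Nothing states that replicates were separate cultures, so p-values measure only the spread between these libraries, which may be technical.

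The deposited values are on a log2 scale and run from 1.63 to 18.47. The transform behind them is not named in the table. The study's methods give variance stabilization with DESeq2 for its tumour profiles, which were not these libraries, so differences of weakly expressed genes may be compressed by an unknown amount. Depth is unknown, since the table holds no counts. A gene was called where its adjusted p in limma was under 0.05, with adjustment over all genes tested. All 10 genes passed the filter on low values in each comparison.

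In the integrated stress response, kinases that sense missing amino acids, misfolded protein in the endoplasmic reticulum, viral RNA or lack of haem phosphorylate the translation factor eIF2. Most translation then slows, while the Atf4 mRNA is translated better through its upstream reading frames. ATF4 protein, paired with a C/EBP protein, raises transcription of genes for amino acid synthesis, transport and tRNA charging, and of further stress regulators. The amount of Atf4 mRNA is thus only part of ATF4 activity, and protein was not analysed here. In RNA from whole cultures, fewer cells expressing a gene and less RNA per cell cannot be told apart.

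Nsd2, listed under its earlier symbol Whsc1, was examined first as a check of the labels. It read 12.48, 12.43 and 12.42 in control, 11.56, 11.61 and 11.68 in shNsd2, and 12.15, 12.21 and 12.07 in MCTP libraries. Every shNsd2 library lay below every control library, with a log2 difference of -0.83 (standard error 0.041, adjusted p = 2.26e-06 in limma). With MCTP the difference was -0.30 (adjusted p = 0.00562 in limma), and it was no longer called after correction of the libraries for GC content (-0.10, adjusted p = 0.142, the highest of 13 alternatives, whose lowest was 2.72e-04).

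Of the epithelial markers 10 of 13 were in the table, and of the mesenchymal 4 of 5. Epithelial markers were high, with Krt8 between 15.97 and 16.70 and Cdh1 between 11.41 and 11.84 over the 9 libraries, as was mesenchymal Vim, between 16.99 and 17.65. The other mesenchymal markers in the table were lower, with Col1a1 between 7.76 and 8.25, Pdgfra between 3.97 and 4.14 and Dcn between 2.31 and 2.50. Col1a1 was between 8.12 and 8.25 in control libraries. It was lower in both treated groups, between 7.76 and 7.94 in MCTP and between 7.88 and 7.95 in shNsd2 libraries. Among the epithelial and mesenchymal markers, the libraries of the 3 groups did not overlap for Cdh1, Krt14, Krt19, Cldn4, Vim and Pdgfra. Such gaps were common: for each pair of groups and each direction, 24.8% to 29.1% of all genes tested had no overlap. Cdh1 was between 11.70 and 11.84 in control, 11.41 and 11.46 in MCTP, and 11.56 and 11.58 in shNsd2 libraries. Krt14 was between 8.78 and 8.98 in control, 9.91 and 10.30 in MCTP, and 9.63 and 9.76 in shNsd2 libraries. The keratin Krt19 was between 16.08 and 16.28, 16.34 and 16.76, and 15.76 and 15.94 in the same order, and the junction gene Cldn4 between 10.49 and 10.60, 10.75 and 10.98, and 10.09 and 10.23. Vim was between 17.16 and 17.26, 17.40 and 17.65, and 16.99 and 17.10. Pdgfra, close to the low value limit of 3.78, was between 3.97 and 4.01, 4.03 and 4.06, and 4.10 and 4.14. Krt15 was between 12.53 and 12.56 in control and 11.29 and 11.42 in shNsd2 libraries, and its MCTP libraries, between 12.44 and 12.73, overlapped with control. Epcam, in contrast, lay between 3.54 and 3.76. All its libraries, and those of Dcn and of Cdh5 given next, lay below the low value limit of 3.78. Among markers of other cells, endothelial Cdh5 lay between 3.47 and 3.71 and lung epithelial Ager between 4.89 and 5.06. The macrophage marker Cd68 was between 6.50 and 6.60 in control, between 7.15 and 7.44 in MCTP and between 6.72 and 6.78 in shNsd2 libraries, so both treated groups lay above control. Of the leukocyte markers 1 of 4, Cd68, was in the table, and of the endothelial and lung epithelial markers 1 of 3 each. The part of these markers in the results was not tested. Krt5, Pbsn, Ptprc, Pecam1 and Sftpc were among the markers not analysed here.

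Control libraries 1 and 3 lay on either side for the stress genes. Replicate 1 was the lowest control library for 10 of the 10 genes, against 42.2% of all genes in the table, and replicate 3 the highest for 9 of 10, against 30.9%. The mean of the 10 genes, relative to the control mean, was -0.20 in control replicate 1, 0.03 in replicate 2 and 0.17 in replicate 3. The mean over the amino acid genes described below was likewise -0.17, 0.05 and 0.12, and that over tRNA synthetases linked to ATF4 -0.15, 0.07 and 0.09. That of the 10 genes was between -0.53 and -0.37 in MCTP libraries and between 0.24 and 0.29 in shNsd2 libraries. The median standard deviation of the 10 genes was 0.181 in control libraries, where that of all genes was 0.0501. In shNsd2 libraries the same medians were 0.0497 and 0.0428. Libraries also differed with the GC content of transcripts. The Pearson correlation between a library's deviation from the gene means and GC content, across 12513 genes that are not independent replicates, was -0.577, -0.284 and -0.153 in control replicates 1, 2 and 3. It was 0.438, -0.273 and 0.539 in the MCTP libraries and 0.1, 0.121 and -0.282 in the shNsd2 libraries, in the same order. The trend thus differed in sign between all control and 2 of the 3 MCTP libraries.

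Atf4 (chromosome 15, 80255184 to 80257541, + strand, on GRCm38) is the central transcription factor of the response. Its log2 expression was 13.99, 14.16 and 14.28 in control, 13.50, 13.40 and 13.50 in MCTP, and 14.26, 14.25 and 14.28 in shNsd2 libraries. All MCTP libraries lay below all control libraries, and the shNsd2 libraries sat at the upper end of the control range. The mean was 14.14 ± 0.146 (SD, n = 3) in control and 13.47 ± 0.0571 (SD, n = 3) in MCTP libraries, a log2 difference of -0.68. With shNsd2 the difference was 0.12 and was not called (standard error 0.065, adjusted p = 0.164 in limma). Per transcript length, Atf4 was the most abundant of the 10 genes in control cells, at 13.36 after subtraction of the log2 length in kilobases. The next was Atf5 at 11.03, and the control ranges of Atf4 and Atf5 did not overlap on that scale.

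The C/EBP proteins are basic leucine zipper factors that pair with ATF4. Cebpb, a C/EBP factor also known from inflammation and differentiation, read 9.63, 9.90 and 9.86 in control, 9.54, 9.39 and 9.50 in MCTP, and 10.04, 9.88 and 9.84 in shNsd2 libraries. Its MCTP libraries all lay below control, with a difference in means of -0.32. Cebpg, a C/EBP factor that lacks a typical activation domain, read 10.66, 10.73 and 10.78 in control, 10.10, 10.28 and 10.11 in MCTP, and 10.78, 10.81 and 10.96 in shNsd2 libraries. Its MCTP libraries again all lay below control, by -0.56 in the mean, or by -0.40 after GC correction. Its transcript has the lowest GC content of the 10, at 43.3%. With shNsd2 neither was called (0.13, adjusted p = 0.211 for Cebpb and 0.12, adjusted p = 0.0914 for Cebpg in limma). The difference of Cebpb was 0.06 without shNsd2 replicate 1 and 0.03 after GC correction. That of Cebpg was 0.07 without shNsd2 replicate 3. After GC correction Cebpg was called higher with shNsd2 (0.19, adjusted p = 0.0116 in limma), where the 13 alternatives ran up to an adjusted p of 0.251. Cebpb shares 908 bases with Tmem189 on the opposite strand. Cebpg shares 1140 bases with Gm44836 and 617 with Gm45094 on the same strand, and 353 with Gm45095 on the opposite strand.

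Ddit3 encodes CHOP, a C/EBP relative that is induced under prolonged stress and is known for promoting cell death. Its values were 9.57, 9.89 and 10.10 in control, 9.35, 9.41 and 9.44 in MCTP, and 9.95, 10.01 and 10.12 in shNsd2 libraries. The MCTP libraries lay below control, by -0.45 in the mean, although control replicate 1 was closer to them than to control replicate 3. With shNsd2 the difference was 0.17 (adjusted p = 0.248 in limma). In the reference, Ddit3 shares 2925 bases with a second gene model of the same name on the same strand. On the opposite strand it shares 68 bases with Mars and 15 with Gm4189. How the authors' counting treated shared reads is not given in the sources used here.

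Atf3, a bZIP factor that is induced by many kinds of stress, lay on the other side of control from Atf4 with MCTP. It read 9.21, 9.51 and 9.70 in control, 10.01, 9.90 and 10.10 in MCTP, and 9.66, 9.70 and 9.78 in shNsd2 libraries. The MCTP libraries were all above control, by 0.53 in the mean. The difference was 0.40 without control replicate 1 and 0.65 without control replicate 3. Atf3 was the only 1 of the 10 genes whose shNsd2 libraries all lay below the MCTP libraries, by -0.29 in the mean. With shNsd2 it was 0.24 above control and not called (adjusted p = 0.0834 in limma). The gene overlaps Gm24748 on the opposite strand, by 108 bases.

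Atf5, another factor whose mRNA has upstream reading frames and which is known for the mitochondrial stress response, differed most with shNsd2. Its log2 expression was 11.62, 11.95 and 12.10 in control, 11.67, 11.52 and 11.87 in MCTP, and 12.52, 12.50 and 12.52 in shNsd2 libraries. The shNsd2 libraries lay above every control library, and the MCTP libraries overlapped with control. With MCTP the difference in means was -0.21, or -0.10 without control replicate 3, -0.12 without MCTP replicate 2 and -0.34 without control replicate 1. Atf5 rose by 0.62 with shNsd2 (standard error 0.098, adjusted p = 9.88e-04 in limma), and by 0.49 without control replicate 1 (adjusted p = 1.91e-05). Over 13 alternatives the highest adjusted p was 0.00532. The gene overlaps Nup62 and Il4i1 on the opposite strand, by 571 and 272 bases.

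Nupr1, a small chromatin-associated protein induced by stress, had values of 9.97, 10.02 and 10.19 in control, 9.58, 9.65 and 9.72 in MCTP, and 10.07, 10.11 and 10.21 in shNsd2 libraries. Its MCTP libraries lay below control, by -0.41 in the mean, and its shNsd2 libraries lay within or just above the control range (0.07, adjusted p = 0.369 in limma). Over 13 alternatives the difference with shNsd2 ran from 0.03 to 0.14.

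Trib3 and Chac1 act at the end of the pathway. Trib3 is a pseudokinase that binds ATF4 and dampens its activity, and Chac1 breaks down glutathione. Trib3 (chromosome 2, 152337422 to 152344032, - strand) read 11.20, 11.71 and 11.94 in control, 10.19, 9.99 and 10.36 in MCTP, and 12.09, 12.04 and 12.11 in shNsd2 libraries. The MCTP libraries formed the low group, and control replicate 1 was the lowest of the remaining libraries. The mean was 11.61 ± 0.381 (SD, n = 3) in control and 10.18 ± 0.187 (SD, n = 3) in MCTP libraries. That difference, -1.43, is the one for which Trib3 was noted, and it was -1.64 without control replicate 1 and -1.27 without control replicate 3. Trib3 rose by 0.47 with shNsd2 (standard error 0.15, adjusted p = 0.0303 in limma), against the same control libraries for which it was noted. The call was lost in 4 of 6 fits without a library. Without control replicate 1 the difference was 0.26 (adjusted p = 0.0053). It was not called without control replicate 2 (0.52, adjusted p = 0.0524), shNsd2 replicate 1 (0.46, adjusted p = 0.0776), shNsd2 replicate 2 (0.49, adjusted p = 0.0568) or shNsd2 replicate 3 (0.45, adjusted p = 0.0737).

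Chac1 (chromosome 2, 119351229 to 119354381, + strand) gave 9.87, 10.05 and 10.30 in control, 8.79, 8.65 and 8.91 in MCTP, and 10.25, 10.21 and 10.23 in shNsd2 libraries. Its MCTP libraries lay about as far below control as those of Trib3, by -1.29 in the mean. Its shNsd2 libraries lay within the control range (0.15, adjusted p = 0.187 in limma).

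Sesn2, a leucine sensor that restrains the growth kinase complex mTORC1, differed from Trib3 and Chac1. It read 11.05, 11.18 and 11.32 in control, 11.44, 11.34 and 11.54 in MCTP, and 11.72, 11.73 and 11.70 in shNsd2 libraries. Both treated groups lay above control, with MCTP by 0.26 in the mean, or 0.16 after GC correction. Sesn2 rose by 0.53 with shNsd2 (standard error 0.060, adjusted p = 1.68e-04 in limma), and by 0.47 without control replicate 1 (adjusted p = 2.29e-05). Over 13 alternatives the highest adjusted p was 0.00147. The gene shares 6089 bases with the model Gm12981 on the same strand of the reference.

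**Figure D1:**
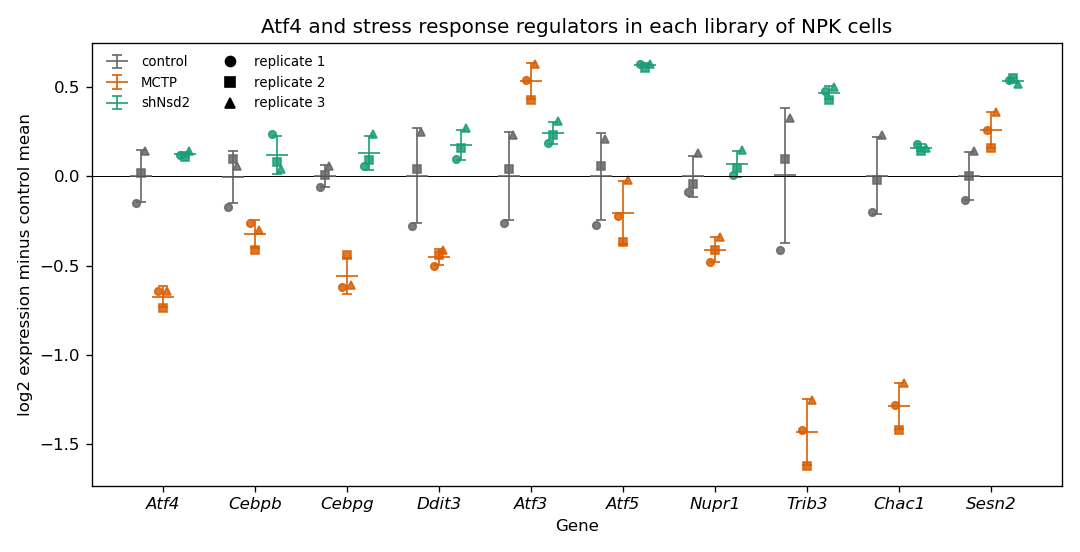
The vertical axis gives log2 expression minus the control mean of each gene, for 10 genes on the horizontal axis. Points are the 3 libraries of each group with a marker shape for each replicate number, dashes are means and bars are standard deviations. Trib3 and Chac1 lie lowest with MCTP (-1.43 and -1.29), whereas Atf3 and Sesn2 lie above control in all 3 MCTP libraries.

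With shNsd2, 3 of the 10 genes were called higher (Atf5, Sesn2 and Trib3), where 23.1% of the 12205 genes tested were called higher. None (0) was called lower in limma, where 24.8% of genes were, and 0 had a lower value at an unadjusted p under 0.05. The share of genes called higher was thus near that of the table. All 10 means were above control, with a median difference of 0.16. The same 3 genes had shNsd2 libraries all above control (28.1% of genes), and 0 had them all below (29.1%). Without control replicate 3, 7 of the 10 genes were called higher, where 2428 of all genes were (2815 with all libraries). Added were Atf4 (0.19, adjusted p = 0.0312), Ddit3 (0.29, adjusted p = 0.0354), Atf3 (0.35, adjusted p = 0.0109) and Chac1 (0.27, adjusted p = 0.00803 in limma). Without control replicate 1, 3 were called, where 2991 of all genes were called higher. The differences of the other genes of the 10 were 0.04 for Atf4, 0.04 for Cebpb, 0.09 for Cebpg, 0.03 for Ddit3, 0.11 for Atf3, 0.03 for Nupr1 and 0.05 for Chac1. Trib3 was lost from the count without control replicate 2 or any shNsd2 library, which left 2 (0.45 to 0.52 for Trib3). In those fits 2040 to 2696 of all genes were called higher.

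With MCTP, 7 of the 10 genes had all libraries below control, where 24.8% of the 12216 genes tested did, and 2 had all libraries above (25.8%). Atf5 overlapped. The 10 genes were chosen with this comparison known, and nothing is read from these counts. The median difference of the 10 genes was -0.43. Without control replicate 1 the differences with MCTP were -0.75 for Atf4, -0.40 for Cebpb, -0.59 for Cebpg, -0.60 for Ddit3, 0.40 for Atf3, -0.34 for Atf5, -0.45 for Nupr1, -1.64 for Trib3, -1.39 for Chac1 and 0.19 for Sesn2. With control replicate 3 left out they were -0.61 for Atf4, -0.29 for Cebpb, -0.53 for Cebpg, -0.33 for Ddit3, 0.65 for Atf3, -0.10 for Atf5, -0.34 for Nupr1, -1.27 for Trib3, -1.18 for Chac1 and 0.33 for Sesn2. The signs were the same in both. Of all genes, 17.2% were called lower and 18.0% higher. The comparison of shNsd2 with MCTP rests on the same MCTP libraries, so nothing is read from its counts either. There, 9 of the 10 genes were higher in every shNsd2 library (26.5% of the 12217 genes tested) and 1, Atf3, was lower (28.5%), where 20.6% of genes were called higher and 22.6% lower in limma. The largest of these differences were 1.90 for Trib3 and 1.45 for Chac1. Both comparisons with control share the control libraries, so their values are given side by side only.

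In control cells, the order of levels per transcript length was Atf4, Atf5, Trib3, Nupr1, Ddit3, Sesn2, Chac1, Cebpb, Cebpg and Atf3, from 13.36 to 8.48 on the log2 scale per kilobase. Gaps without overlap of the control ranges separated Atf4 from Atf5, Ddit3 from Sesn2, and Cebpb from Cebpg. The other neighbours in the order overlapped.

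The genes whose values over the 9 libraries were most like those of Atf4, among 12188 genes kept in all comparisons, were Gpt2 (Pearson r = 0.998 over 9 libraries), Wnt7b (0.997), Arid5a (0.997), Chac1 (0.996) and Cars (0.996). For Trib3 they were Jdp2 (0.997), Slc25a33 (0.996), Psph (0.995), Slc6a9 (0.995) and Arid5a (0.994). For Ddit3 they were Stbd1 (0.993), Agap1 (0.987), Soat2 (0.985), Apobec1 (0.984) and Angptl6 (0.980). These values describe 9 libraries that include the group differences and carry no p. The correlation of Atf3 with Atf4 was -0.591 and that of Sesn2 with Atf4 was 0.208.

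The enzymes and transporters of amino acid supply are classical ATF4 targets, and 22 of them were listed. Of these, 4 (Asns, Mthfd2, Slc7a11 and Gpt2) were known to be lower with MCTP from earlier results of these data, so a count that includes them is not independent of its direction. With MCTP, 21 of the 22 fell and 0 rose in limma (0 higher at an unadjusted p under 0.05), with a median of -0.83 against -0.01 over all genes. Without the 4 known genes, 17 of 18 fell and 0 rose (0 higher at an unadjusted p under 0.05), with a median of -0.72, where 17.2% of all genes were called lower. The other 18 were also listed with those results known, so their count is not fully independent either. The 4 known genes are given as a description, without a test. The difference was -1.50 for Gpt2, which makes alanine, and -1.29 for Asns, the asparagine synthetase. It was -1.27 for Mthfd2, of the mitochondrial folate cycle, and -1.23 for Slc7a11, the cystine transporter. Slc7a3, near the low end of the table, was not called (-0.03, adjusted p = 0.615).

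With shNsd2 the amino acid list showed 1 gene called lower and 7 higher, with a median of 0.15 against 0.00 over all genes, where 24.8% and 23.1% were called lower and higher. The gene that fell was Slc7a11 (-0.34, adjusted p = 0.00359 in limma). This call was lost with all 9 libraries in 1 fit, where the difference is still that of the group means, -0.34. Those with the largest rises were Bcat1, which handles branched-chain amino acids (0.49, adjusted p = 0.00137), Cth (0.45, adjusted p = 0.0115), the glycine transporter Slc6a9 (0.43, adjusted p = 0.00422) and Aldh1l2 (0.38, adjusted p = 0.0176). Aldh1l2 was not called without control replicate 2 (0.37, adjusted p = 0.0533) or shNsd2 replicate 3 (0.30, adjusted p = 0.0584). With control replicate 1 left out, 4 genes of the list were called lower and 6 higher, and 5 to 10 were called higher without the other libraries, with 10 without control replicate 3. Without control replicate 1, the medians of the list were 0.06 with shNsd2 and -0.94 with MCTP. The direct comparison with MCTP uses the libraries in which the 4 genes were known to be low. In it, 22 of 22 were higher with shNsd2, and 18 of 18 without the 4, where 20.6% of all genes were, with Gpt2 at 1.73, Aldh1l2 at 1.57 and Bcat1 at 1.44. The mean level of Cth was 10.12 with shNsd2 and 8.53 with MCTP (adjusted p = 4.17e-05 in limma).

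Aminoacyl-tRNA synthetases, which charge tRNAs, were split into 12 genes with a known link to ATF4 and 8 others. The lists were chosen with earlier results known, among them the fall of Trib3 and of some amino acid genes with MCTP. Counts of the 12 with MCTP, and between both treatments, are therefore not independent of their direction. Of the 12, 11 fell with MCTP (median -0.62), where 17.2% of all genes did, among them Lars (-0.85, adjusted p = 1.02e-04 in limma), Nars (-0.79, adjusted p = 1.55e-04), Tars (-0.74, adjusted p = 1.07e-04) and Cars (-0.67, adjusted p = 7.22e-04). Wars was not called (-0.30, adjusted p = 0.0828). Of the 8 others, 2 fell, Dars (-0.42, adjusted p = 0.00226) and Farsb (-0.32, adjusted p = 0.00629), with a median of -0.09, and 2 rose without MCTP replicate 2. The median was -0.02 without MCTP replicate 2 and -0.15 without control replicate 1. Dars was at -0.22 after GC correction. With shNsd2, 0 of the 12 were called in limma, where 24.8% of all genes were lower and 23.1% higher, and 1 was higher at an unadjusted p under 0.05. The largest differences were 0.26 for Wars (adjusted p = 0.0509) and 0.15 for Aars (adjusted p = 0.109). Wars was called in 6 of 13 alternatives, among them after GC correction (0.23, adjusted p = 0.0329), without control replicate 1 (0.13, adjusted p = 0.0256) and without control replicate 3 (0.35, adjusted p = 0.0149), with adjusted p up to 0.122. Aars was called in 1 of 13 alternatives, without control replicate 3 (0.20, adjusted p = 0.0461), and its lowest difference over them was 0.06. Without control replicate 1 the median of the 12 with shNsd2 was -0.01, with 1 called lower and 1 higher. Farsa was not called with all 9 libraries in 1 fit (0.18, adjusted p = 0.0668). Of the 8 others, Dars fell with shNsd2 (-0.35, adjusted p = 1.36e-04), and Vars (0.25, adjusted p = 0.00536), Qars (0.23, adjusted p = 0.00121) and Farsa (0.18, adjusted p = 0.00596) rose. The rises were 6 after GC correction or median centring. Between both treatments, where 20.6% of all genes were higher with shNsd2, 12 of the 12 were (median 0.67) and 3 of the 8 others, Farsb (0.44), Vars (0.43) and Rars (0.34).

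Among 12 other stress targets, 7 fell and 3 rose with MCTP, where 17.2% and 18.0% of all genes did. This list too was chosen with earlier results of these data known. Those that rose were Gdf15 (0.50, adjusted p = 0.0204 in limma), Tnfrsf10b (0.46, adjusted p = 8.74e-04) and Map1lc3b (0.39, adjusted p = 0.0105). The rises were 1 without MCTP replicate 1 and 5 without MCTP replicate 2. The lipoprotein receptor gene Vldlr fell by 1.21 (adjusted p = 9.53e-05 in limma) and Ero1l, an oxidase of the endoplasmic reticulum, fell by 1.16 (adjusted p = 6.85e-05). Herpud1 fell by 0.61 and Eif4ebp1, an inhibitor of cap-dependent translation, fell by 0.52. Vldlr and Ero1l also fell with shNsd2, by 0.86 (adjusted p = 4.67e-05) and 0.71 (adjusted p = 2.42e-05), unlike the amino acid genes named above for their rises. With shNsd2, 2 of the 12 fell and 3 rose (24.8% and 23.1% of all genes), including the hormone genes Gdf15 (0.36, adjusted p = 0.00828) and Fgf21 (0.35, adjusted p = 3.39e-04), the last near the low end of the table at 4.41 in control. In the direct comparison 7 were higher and 2 lower with shNsd2 (20.6% and 22.6% of all genes), with Herpud1 at 0.61, Eif4ebp1 at 0.59, Fgf21 at 0.50 and the death receptor gene Tnfrsf10b at -0.47, and the lower were 4 without MCTP replicate 2.

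The listed genes of the eIF2 pathway, among them the eIF2 kinases, eIF2 and its exchange factor and phosphatases, were 18. With MCTP, 4 fell: the eIF2 subunit gene Eif2s2 (-0.88, adjusted p = 0.00287 in limma), the amino acid-sensing kinase gene Eif2ak4 (-0.39, adjusted p = 0.00229), Ppp1r15b (-0.36, adjusted p = 0.002) and Eif2s1 (-0.27, adjusted p = 0.036). The call of Eif2s1 was lost after GC correction (-0.07, adjusted p = 0.137), after quantile normalization (-0.26, adjusted p = 0.0519) and without MCTP replicate 1 (-0.25, adjusted p = 0.131), MCTP replicate 3 (-0.21, adjusted p = 0.095), control replicate 1 (-0.24, adjusted p = 0.119), control replicate 2 (-0.28, adjusted p = 0.1) or control replicate 3 (-0.31, adjusted p = 0.0631). The other 2 called genes rose, where 17.2% of all genes fell and 18.0% rose. Without MCTP replicate 2 the list had 6 lower and 6 higher, and without any of the other libraries 3 lower and 0 higher. Of all genes, 3743 were lower and 3641 higher without MCTP replicate 2. Without any of the others, 923 to 1282 of all genes were lower and 1123 to 1560 higher. With shNsd2, 7 rose and 3 fell, where 23.1% and 24.8% of all genes did. The falls were 1 without control replicate 2, shNsd2 replicate 1 or shNsd2 replicate 2. The largest rises were those of Ppp1r15a, a phosphatase subunit that reverses eIF2 phosphorylation (0.50, adjusted p = 0.00758), and the exchange factor genes Eif2b4 (0.30, adjusted p = 5.88e-04), Eif2b5 (0.29, adjusted p = 0.00229) and Eif2b1 (0.28, adjusted p = 3.35e-04). Directly compared, 5 were higher and 1 lower with shNsd2 (20.6% and 22.6% of all genes). Without MCTP replicate 2 they were 8 and 2, where 3858 and 3923 of all genes were. None (0) was lower without shNsd2 replicate 1 or 2. The largest were Eif2s2 (0.71), Ppp1r15b (0.40), Ppp1r15a (0.40) and Eif2ak4 (0.39).

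Further stress programmes were listed beside these. Of 17 genes of the unfolded protein response of the endoplasmic reticulum, 5 fell and 2 rose with MCTP (median -0.06), where 17.2% and 18.0% of all genes did. Without MCTP replicate 1 the counts were 1 and 0, without control replicate 2 or 3 they were 2 and 0, and without MCTP replicate 3 or control replicate 1 they were 4 and 0. Without MCTP replicate 2 they were 6 and 3, where 3743 of all genes fell and 3641 rose. Without single other libraries, 923 to 1282 of all genes fell and 1123 to 1560 rose. The genes with the largest differences were Atf6 at -0.49 (adjusted p = 0.00269 in limma), Hsp90b1 at -0.47, Ern1 at -0.30 and Calr at 0.25. Hsp90b1 was not called without MCTP replicate 1 (-0.42, adjusted p = 0.0647). Ern1 was not called without MCTP replicate 1 (-0.31, adjusted p = 0.0541), control replicate 2 (-0.31, adjusted p = 0.0549) or control replicate 3 (-0.24, adjusted p = 0.0544). Calr was called in 1 of the 6 fits that left out a library, the one without MCTP replicate 2, with differences from 0.20 to 0.31 over 13 alternatives and adjusted p up to 0.0946. With shNsd2, 6 rose and 2 fell (23.1% and 24.8% of all genes), and the falls were 1 without control replicate 2, control replicate 3, shNsd2 replicate 1 or shNsd2 replicate 2. The largest differences were Creld2 at 0.37 (adjusted p = 1.39e-04), Hyou1 at 0.28 (adjusted p = 8.99e-04), Edem1 at -0.26 (adjusted p = 2.23e-04) and Atf6 at -0.24 (adjusted p = 0.0171), where the libraries overlapped. Atf6 was not called with shNsd2 without control replicate 2 (-0.21, adjusted p = 0.0688), control replicate 3 (-0.20, adjusted p = 0.0576), shNsd2 replicate 1 (-0.22, adjusted p = 0.0626) or shNsd2 replicate 2 (-0.22, adjusted p = 0.0618). Directly compared, 8 were higher and 0 lower with shNsd2 in limma (1 lower at an unadjusted p under 0.05), where 20.6% and 22.6% of all genes were, with the chaperone gene Hspa5 at 0.45, Hsp90b1 at 0.38, Creld2 at 0.37 and Manf at 0.29. The counts there were 10 higher and 3 lower without MCTP replicate 2 and 5 higher without MCTP replicate 3 or shNsd2 replicate 3. Hsp90b1 was not called there without MCTP replicate 1 (0.34), MCTP replicate 3 (0.31), shNsd2 replicate 1 (0.38) or shNsd2 replicate 3 (0.34).

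Of 12 heat shock genes, 5 rose and 1 fell with MCTP, and 7 rose and 0 fell with shNsd2 in limma (0 lower at an unadjusted p under 0.05). Of all genes, 18.0% rose and 17.2% fell with MCTP, and 23.1% and 24.8% with shNsd2. The fall with MCTP was not called without MCTP replicate 1 or control replicate 2, and 2 were without MCTP replicate 2. With MCTP, Hspb1 rose by 1.07 (adjusted p = 4.90e-04 in limma), Hspa1b by 0.61, Hspa1a by 0.41 and Bag3 by 0.37. With shNsd2, Hspa1b rose by 0.71 (adjusted p = 1.82e-05), Hsph1 by 0.66 (adjusted p = 2.66e-06), Hsf1, the main heat shock factor, by 0.43 and Hspa8 by 0.43. Hspa1a and Hspa1b are near-identical copies, and reads of one could be counted for the other. In the direct comparison 4 were higher and 3 lower with shNsd2 (20.6% and 22.6% of all genes), with Hspb1 at -1.01, Hsph1 at 0.57, Hspd1 at 0.49 and Bag3 at -0.41.

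Of 25 other bZIP factors 22 were tested, since Jun and Batf3 were not among the genes analysed here and Atf7 stood on more than 1 row. With MCTP 7 fell and 5 rose, where 17.2% and 18.0% of all genes did. The falls were 3 without control replicate 2, 4 without MCTP replicate 1 or 3, and 10 without MCTP replicate 2, and the rises were 3 without MCTP replicate 1. The largest differences were Crebzf at -0.81 (adjusted p = 0.0021 in limma), Jdp2 at -0.51, Creb1 at -0.51 and Creb3 at 0.50. With shNsd2 6 fell and 7 rose (24.8% and 23.1% of all genes), with Nfil3 at 0.32, Fosl1 at 0.30, Jund at 0.28 and Maff at -0.27. In the direct comparison 9 were higher and 3 lower with shNsd2 (20.6% and 22.6% of all genes), with Creb1 at 0.71, Jdp2 at 0.66, Creb3 at -0.60 and Crebzf at 0.58, and the lower were 7 without MCTP replicate 2. Creb1 was at -0.29 with MCTP after GC correction, and not called without MCTP replicate 1 (-0.46, adjusted p = 0.0965), MCTP replicate 3 (-0.42, adjusted p = 0.0623), control replicate 1 (-0.42, adjusted p = 0.0769) or control replicate 2 (-0.53, adjusted p = 0.0625).

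Among 7 relatives of the 10 genes, Cebpa moved apart in the treatments: it rose by 0.71 with MCTP (adjusted p = 0.00106 in limma), fell by 0.68 with shNsd2 (adjusted p = 7.40e-06) and differed by -1.39 between shNsd2 and MCTP (adjusted p = 4.31e-05). Trib2, a relative of Trib3, fell in both, by 0.72 with MCTP (adjusted p = 1.78e-04) and 0.59 with shNsd2 (adjusted p = 6.72e-06). With MCTP Trib1 (0.20) and Cebpd (0.16) also rose. Both were called in 1 of the 6 fits that left out a library, the one without MCTP replicate 2, with Trib1 at 0.12 after GC correction, and adjusted p up to 0.122 for Trib1 and 0.144 for Cebpd. The list had 1 lower and 3 higher with MCTP (17.2% and 18.0% of all genes). The lower were 2 without MCTP replicate 2, and the higher were 1 without any of the other libraries. With shNsd2 Chac2 (-0.30) and Sesn1 (-0.27) fell as well, and 4 of the 7 fell and 1 rose (24.8% and 23.1% of all genes). Directly compared, 2 were lower and 0 higher with shNsd2 in limma (1 higher at an unadjusted p under 0.05), where 22.6% and 20.6% of all genes were. The lower were 4 without MCTP replicate 3, 3 without MCTP replicate 2, with 1 higher, and 1 without MCTP replicate 1 or any shNsd2 library. Sesn1 was at -0.17 there (adjusted p = 0.0238), and not called without MCTP replicate 1 (-0.17), shNsd2 replicate 1 (-0.16), shNsd2 replicate 2 (-0.19) or shNsd2 replicate 3 (-0.17).

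**Figure D2:**
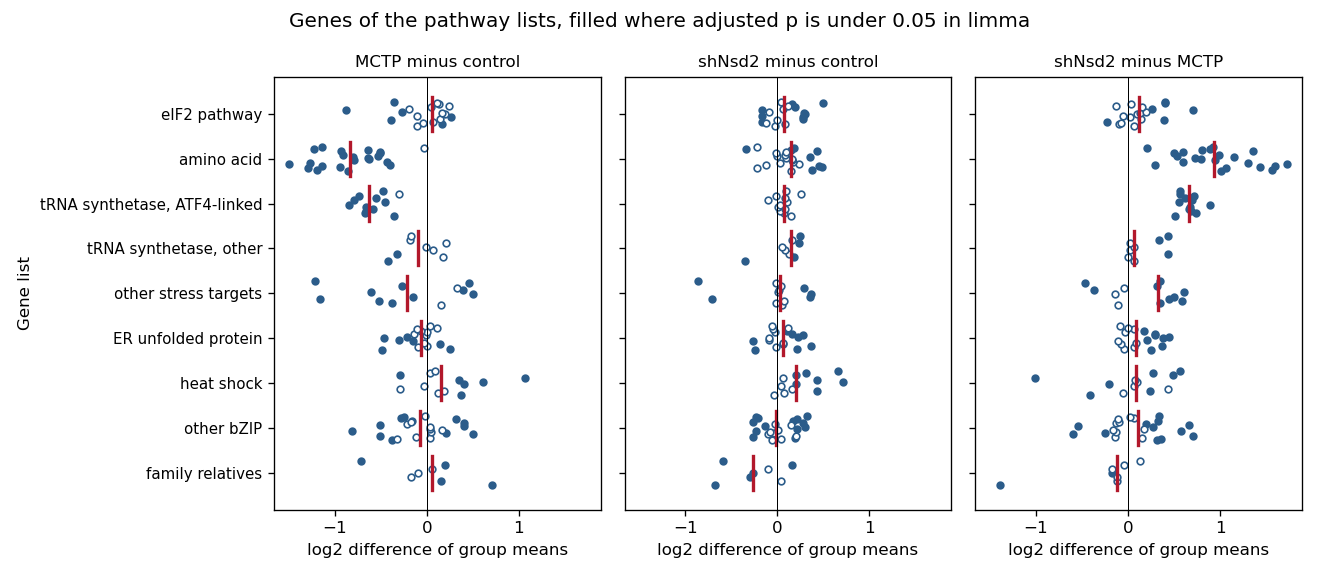
The 3 panels give the log2 difference of group means on the horizontal axis for each gene of 9 lists on the vertical axis, filled where the adjusted p in limma was under 0.05, with a red line at the median of each list. With MCTP the medians of the amino acid and ATF4-linked tRNA synthetase lists lie at -0.83 and -0.62, and with shNsd2 at 0.15 and 0.07.

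Sequence around the start of each gene was read from RefSeq (GRCm38.p6), which gave 11 windows for the 10 genes, each of 250 bases before and 50 after the start. The motif TGATGNAA, the core of the element bound by C/EBP and ATF pairs, was sought on both strands, and the cAMP response element TGACGTCA likewise. TGATGNAA occurred in 4 of the 11 windows, those of Atf3, Chac1, Nupr1 and Trib3, and in 3.97% of 32851 windows of all genes. TGACGTCA occurred in 0 of the 11 and in 1.79% of all windows. In each of the 4 genes the match was read as the reverse complement. The matches are shown because Chac1 and Trib3 were the lowest with MCTP while Atf3, with the same 8 letters as Chac1, was above control. Capitals mark the match, each sequence is on the strand of its gene, and positions count from the start. Atf3 matched at -110 within its gene model outside annotated exons (chr1:191183411-191183468, - strand), Chac1 at -193 outside gene models (chr2:119351024-119351081, + strand), Nupr1 at -110 in a GENCODE untranslated exon (chr7:126625563-126625590, - strand), and Trib3 at 15 past the RefSeq start (chr2:152344029-152344056, - strand). The GENCODE model of Trib3 ends at 152344032, so its match lies outside that model.
Atf3: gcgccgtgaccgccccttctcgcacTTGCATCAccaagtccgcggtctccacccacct
Chac1: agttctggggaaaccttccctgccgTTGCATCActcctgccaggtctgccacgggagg
Nupr1: aagggccagaTTGCATCAgacagggctt
Trib3: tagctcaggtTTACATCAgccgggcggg

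A match describes the letters of these windows and no binding was measured. Windows without a match, such as that of Sesn2, say nothing of elements elsewhere.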

How the data were processed

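RNA-seq profiles of 3 control, 3 MCTP and 3 shNsd2 libraries were analysed, grouped by sample title. The authors deposited log2-scale values for 12842 genes, and the transform is not named in the table. The submitters' processing notes name mm9, bcl2fastq 1.8.4, TopHat, Cufflinks, DESeq and DESeq2 without their roles. The table has 12 columns of values, and the 3 that correspond to no sample were left out. Depth is unknown, so precision was judged from replicates alone.

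The filter asked for values above 3.78 in 3 or more of a comparison's 6 libraries, the median of the lowest 10% of values. Groups were compared with limma 3.58.1 in R 4.3.3 (lmFit, eBayes with a mean-variance trend, Benjamini-Hochberg over all genes tested, threshold 0.05, two-sided). The procedure was tested on simulated data. Lengths, GC content and coordinates came from GENCODE M21 on GRCm38, matched by Ensembl identifier without version for 12513 genes (97.4%), and promoters from RefSeq. The deposited build differs, so no coordinates were converted.

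The members and lists were chosen with earlier results of these data known. Counts of the amino acid list were also made without its 4 genes named in those results. Named were all members, Nsd2, for each list and comparison up to 4 called genes with the largest absolute difference (and, where fewer than 2 were called, the 2 largest differences), and the 5 genes most correlated with Atf4, Ddit3 and Trib3. Slc7a3, Wars, Gdf15, Tnfrsf10b and Map1lc3b with MCTP, and Slc7a11 with shNsd2, were named outside this rule after their values were seen. As alternatives, each library was left out in turn, the filter or the eBayes trend was dropped, medians were centred, quantiles were normalized, GC content was corrected (lowess, span 0.3), all 9 libraries were fitted together, and replicate number was added as a block. Plots were made in Python 3.11.15 (matplotlib 3.10.9).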

Additional observations from a re-analysis of the deposited data

How the results depend on the processing

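Counts of called genes depended on single libraries. Leaving out each library in turn gave 2046 to 7384 genes for MCTP against control (4305 with all), 3391 to 7781 for shNsd2 against MCTP (5276 with all), 2 to 7 of the 10 stress genes higher with shNsd2 (3 with all), and 1 to 4 amino acid genes lower with shNsd2 (1 with all). The MCTP count was highest without MCTP replicate 2 and lowest without MCTP replicate 1, and the cause was not tested. It held 3743 genes lower and 3641 higher without MCTP replicate 2. Without single other libraries, 923 to 1282 were lower and 1123 to 1560 higher. For shNsd2 against MCTP these numbers were 3923 and 3858, and 1939 to 2542 and 1420 to 2120. For shNsd2 against control, 2300 to 3027 were lower and 2040 to 2991 higher. List counts without a library belong beside these totals. The amino acid genes lower with shNsd2 were 3 after GC correction, 2 after quantile normalization and 0 with all 9 libraries in 1 fit. The 21 amino acid genes lower with MCTP were 19 to 21 without single libraries and 21 in the other alternatives. Of 1742 alternative values of single genes, 1674 kept their direction and their side of the threshold or moved by less than the spread. Calls were lost in 54 and gained in 13, 1 value moved further (Cebpg with MCTP, -0.40 after GC correction) and 0 reversed. Dropping the filter or the eBayes trend, fitting all 9 libraries together or adding the block leaves each difference of group means unchanged. In those fits no value could move or reverse, so these counts are partly fixed in advance.

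With replicate number as a block, 4515 genes were called for shNsd2 against control, of which 2105 were higher. The counts were 3399 for MCTP against control and 3794 for shNsd2 against MCTP. With the block, 4 of the 10 stress genes were higher with shNsd2, with Atf3 added (0.24, adjusted p = 0.0402 in limma). The mean correlation between the deviations of same-numbered libraries was -0.25, -0.18 and -0.36. Of the 9 pairs, 3 were positive, at 0.61 for replicates 3 of MCTP and control (the only pair that was a best match), 0.35 for replicates 1 of shNsd2 and MCTP and 0.24 for replicates 2 of shNsd2 and control. Unknown depth and 3 libraries a group limit the precision.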
